A study of Mus musculus with 6 samples.

Results

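The 10 genes described here encode the transcriptional co-activators YAP (*Yap1*) and TAZ (*Wwtr1*), the TEAD DNA-binding factors *Tead1*, *Tead2* and *Tead4*, the Hippo kinase *Lats2*, and the direct targets *Ctgf*, *Cyr61*, *Ankrd1* and *Amotl2*. They were taken by symbol from a table of 17428 gene symbols, and all 10 had a row and passed the filter on low values, as did 13893 genes in total. The cells were EpH4, a non-cancerous mouse mammary epithelial line. E cells were untreated, M cells had received TGFβ1 for 7 days, and RE cells were M cells kept for a further 4 days in medium without TGFβ1. No genotype, strain or animal age distinguished the groups, and there were 2 libraries per group, 6 in all.

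YAP and TAZ do not bind DNA themselves. They enter the nucleus, dock on TEAD factors and raise transcription of genes for matrix proteins, cytoskeletal regulators and growth factors, whereas the LATS kinases of the Hippo cascade phosphorylate them and hold them in the cytoplasm. *Lats2* and *Amotl2* are both targets and inhibitors, so they form a negative feedback. In epithelia the cascade responds to cell density, cell shape and junctions, and TGFβ1-activated SMADs share several targets with YAP/TAZ. YAP/TAZ activity is mainly set by phosphorylation and location of the proteins, which transcript levels do not measure.

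Within this set, *Ctgf* and *Ankrd1* rose in M cells and then fell in RE cells to below the level of E cells. *Tead2* rose and fell back, *Wwtr1* was at about double its E level in M cells with almost no difference between M and RE cells, and *Yap1* differed little between the stages. *Cyr61*, the close relative of *Ctgf*, did not follow it and was lowest in RE cells.

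The deposited values were sequenced bases summed per gene, and were scaled to ppm, bases per megabase of each library's normalized total (normalized coverage). Libraries held 35782513 to 47928557 reads' worth of 50 bases, so that a total of 3 reads' worth was 0.0632 to 0.0787 ppm, far below all 10 genes. The E libraries differed from each other more than the M or RE libraries did, with 1065 genes over 2-fold apart against 282 and 224. Values without 1 or the other E library are therefore given where leaving it out changed a call or moved a value widely. All but 1 of 6 mammary epithelial markers were well above the floor in every library. *Krt5*, a basal keratin, was low, at 0.208 and 0.0787 ppm in E cells, 0.167 and 0.0479 ppm in M cells and 0.463 and 0.476 ppm in RE cells. Its RE values were above the floor of those libraries (0.0632 and 0.068 ppm). In M cells the basal keratin *Krt14* was called higher (2.64-fold) and *Epcam*, an epithelial adhesion molecule, lower (2.42-fold) than in E cells. In RE cells *Epcam* (2.38-fold) and the luminal keratin *Krt18* (2.58-fold) were called lower than in E cells, and *Krt8* (2.51-fold) and *Krt14* (2.17-fold) lower than in M cells. The other markers were not called between E and RE cells. Of these, *Krt8* (1.6-fold) and *Cdh1* (1.13-fold) were lower in RE cells, and *Krt14* (1.22-fold) was higher. *Krt5* was also higher in RE cells, but it passed the filter on low values only through the RE libraries. Its E replicate 2 value was at the floor, so no fold is given. The summed level of the 6 markers was 1634 to 2041 ppm in E cells, 1928 to 2079 ppm in M cells and 1111 to 1178 ppm in RE cells. The largest fall from E to RE cells was that of *Krt18*, from a mean of 747.6 to 289.9 ppm. Of 8 markers of leukocytes, endothelium, fat cells and glia, the summed level was 8.71 to 13 ppm in E cells, 36.5 to 40.9 ppm in M cells and 9.76 to 10.1 ppm in RE cells. *Csf1r*, a leukocyte growth factor receptor, carried most of this difference, with means of 1.415 ppm in E cells, 27.91 ppm in M cells and 1.755 ppm in RE cells. *Cdh5*, an endothelial cadherin, added a small part, with a mean of 2.204 ppm in M cells and no coverage in E cells. It passed the filter on low values only through the M libraries. The leukocyte marker *Ptprc*, the endothelial marker *Kdr* and the fat marker *Adipoq* stayed at 0 to 0.0787 ppm throughout. The part of such cells, or of the lower epithelial marker sum in RE cells, in the results below was not tested, and in bulk RNA fewer cells of a type and less RNA per cell cannot be told apart.

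TEAD factors bind the sequence GGAATG, which was searched on both strands of the RefSeq promoters (GRCm38.p6, 250 bases before to 50 bases after the transcription start site). Promoters were matched for 7 of the 10 genes. *Ctgf*, *Tead1* and *Tead4* had no entry. The motif was present in 6 of the 7, against 16.6% of 27025 genes with a promoter in the same table (4481 genes). The 6 windows are shown because they hold the TEAD motif, which is in capitals (on the opposite strand it reads CATTCC). Each window runs 5′ to 3′ along its gene, and for genes with several promoters the first listed is given.
Yap1 (chr9:8004547-8004846, minus strand): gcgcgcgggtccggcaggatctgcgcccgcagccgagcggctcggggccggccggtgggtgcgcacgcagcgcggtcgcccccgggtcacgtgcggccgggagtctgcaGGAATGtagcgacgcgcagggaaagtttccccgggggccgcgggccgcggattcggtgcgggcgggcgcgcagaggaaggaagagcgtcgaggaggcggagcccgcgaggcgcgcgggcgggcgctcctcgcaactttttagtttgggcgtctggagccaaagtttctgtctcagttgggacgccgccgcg
Wwtr1 (chr3:57575861-57576160, minus strand): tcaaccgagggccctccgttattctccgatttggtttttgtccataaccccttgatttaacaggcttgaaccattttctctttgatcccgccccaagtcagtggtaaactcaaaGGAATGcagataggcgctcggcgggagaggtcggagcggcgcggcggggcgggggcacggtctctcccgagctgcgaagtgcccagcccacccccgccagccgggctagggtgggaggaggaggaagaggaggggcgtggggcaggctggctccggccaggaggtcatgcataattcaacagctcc
Lats2 (chr14:57746074-57746373, minus strand): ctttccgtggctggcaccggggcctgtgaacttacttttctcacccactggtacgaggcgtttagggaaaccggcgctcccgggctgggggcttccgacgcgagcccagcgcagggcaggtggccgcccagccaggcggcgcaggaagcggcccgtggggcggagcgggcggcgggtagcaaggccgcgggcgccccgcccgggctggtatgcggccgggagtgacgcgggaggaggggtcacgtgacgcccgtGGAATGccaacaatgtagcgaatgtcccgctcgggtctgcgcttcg
Cyr61 (chr3:145649936-145650235, minus strand): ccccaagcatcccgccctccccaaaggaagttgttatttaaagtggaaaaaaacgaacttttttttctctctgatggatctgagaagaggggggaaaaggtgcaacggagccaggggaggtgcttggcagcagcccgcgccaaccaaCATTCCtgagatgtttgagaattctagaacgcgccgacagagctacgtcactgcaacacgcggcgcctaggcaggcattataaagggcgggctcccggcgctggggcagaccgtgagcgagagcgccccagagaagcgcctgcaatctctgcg
Ankrd1 (chr19:36119795-36120094, minus strand): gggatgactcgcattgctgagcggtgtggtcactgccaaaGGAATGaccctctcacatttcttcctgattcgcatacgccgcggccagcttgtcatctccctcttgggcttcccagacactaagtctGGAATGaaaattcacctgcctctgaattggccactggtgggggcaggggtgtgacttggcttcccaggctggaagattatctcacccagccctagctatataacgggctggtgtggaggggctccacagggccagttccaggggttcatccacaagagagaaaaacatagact
Amotl2 (chr9:102717554-102717853, plus strand): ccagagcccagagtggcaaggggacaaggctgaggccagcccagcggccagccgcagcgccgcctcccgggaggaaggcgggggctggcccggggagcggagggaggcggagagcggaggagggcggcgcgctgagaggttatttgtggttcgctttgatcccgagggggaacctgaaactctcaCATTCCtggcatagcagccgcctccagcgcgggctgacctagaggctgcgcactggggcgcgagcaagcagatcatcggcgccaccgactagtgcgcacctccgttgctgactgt

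*Ankrd1* held 2 TEAD motifs, at -210 and -123 counted from the start site, and a single SMAD motif (CAGACA) between them at -137. None of the motifs overlapped. *Yap1* and *Wwtr1*, the genes for the co-activators themselves, held the TEAD motif at similar distances, -141 and -136, and the second listed *Wwtr1* promoter holds the same site at -170. *Cyr61* held it at -103 and *Amotl2* at -65, both on the opposite strand, and *Lats2* held it just inside the transcript, at 5. No TEAD motif was found for *Tead2* or in the second *Lats2* promoter. The SMAD motif is more common (23.6% of genes) and was found only for *Ankrd1* among the 7. The AP-1 motif TGANTCA (8.97% of genes) and the CArG box bound by serum response factor (1.81% of genes) were in none of the windows. A match is a description of letters and not a measured binding site.

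**Figure D1:**
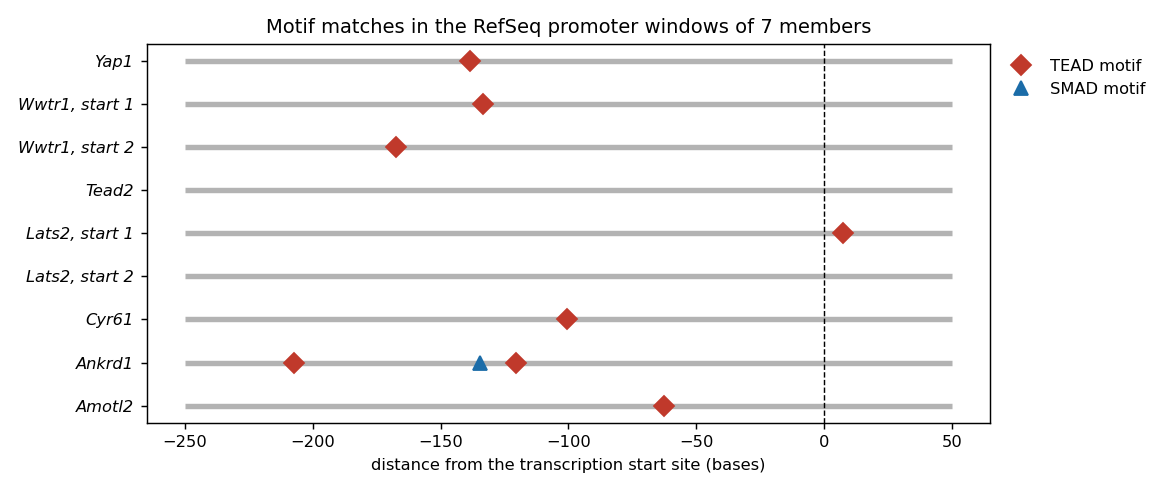
Position of TEAD motifs (red diamonds) and SMAD motifs (blue triangles) in 9 promoter windows of 7 genes, as distance in bases from the transcription start site (dashed line), with each grey bar running from 250 bases before to 50 bases after it. *Ankrd1* is the only row with 2 TEAD motifs, and *Tead2* and the second *Lats2* promoter have none.

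The first question was which of these genes changed when E cells became M cells. A gene was called when its log2 fold change was beyond 1 either way and limma's Benjamini-Hochberg adjusted p over all genes tested was below 0.01. In E vs. M, 4 of the 10 genes were called, all higher in M cells, where 16.8% of all genes tested were called in either direction, 8.41% as higher and 8.35% as lower in M. The median log2 fold change of the 10 genes was 1.06 and that of all genes was 0. Scaled by library totals alone, 2 of the 10 were called higher (*Ctgf* and *Ankrd1*) and 1 lower (*Tead4*), and the share of all genes called was 5.77% higher and 13.2% lower.

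*Ctgf*, which encodes a secreted matricellular protein of the CCN family, was the most responsive. Its normalized coverage was 151 and 203 ppm in E cells, 788 and 743 ppm in M cells and 64.6 and 62.8 ppm in RE cells. Thus both M libraries were far above both E libraries and both RE libraries were below them, without overlap. *Ctgf* rose 4.33-fold in E vs. M (log2 fold change 2.13, SE 0.16, limma adjusted p = 0.000105). It then fell 12-fold in M vs. RE (log2 fold change -3.58, SE 0.16, limma adjusted p = 1.82e-05), a comparison that shares the M libraries with the first. RE cells ended 2.78-fold below E cells (log2 fold change -1.46, limma adjusted p = 0.00138). The last call was lost without RE replicate 1 (log2 fold change -1.48, limma adjusted p = 0.0293) or RE replicate 2 (-1.44, limma adjusted p = 0.024), where the lone RE library is assumed to vary like the other groups. All calls of *Ctgf* were kept without either E library.

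*Ankrd1* encodes an ankyrin-repeat protein known from striated muscle and carries the 2 TEAD motifs shown above. It was at 73.7 and 83.4 ppm in E cells, 224 and 182 ppm in M cells and 27.3 and 30.2 ppm in RE cells. The order of the stages was that of *Ctgf*, with no overlap between any of the groups. *Ankrd1* rose 2.58-fold in E vs. M (log2 fold change 1.36, SE 0.15, limma adjusted p = 0.000541) and fell 7.05-fold in M vs. RE (-2.81, limma adjusted p = 3.25e-05). It ended 2.73-fold lower in RE than in E cells (log2 fold change -1.44, limma adjusted p = 0.00114). Without M replicate 1 the rise was 1.21 with a limma adjusted p of 0.0122. Without RE replicate 1 or 2 the E vs. RE difference was -1.37 or -1.52, with limma adjusted p of 0.028 and 0.0175, so these calls were lost. They were kept without either E library.

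**Figure D2:**
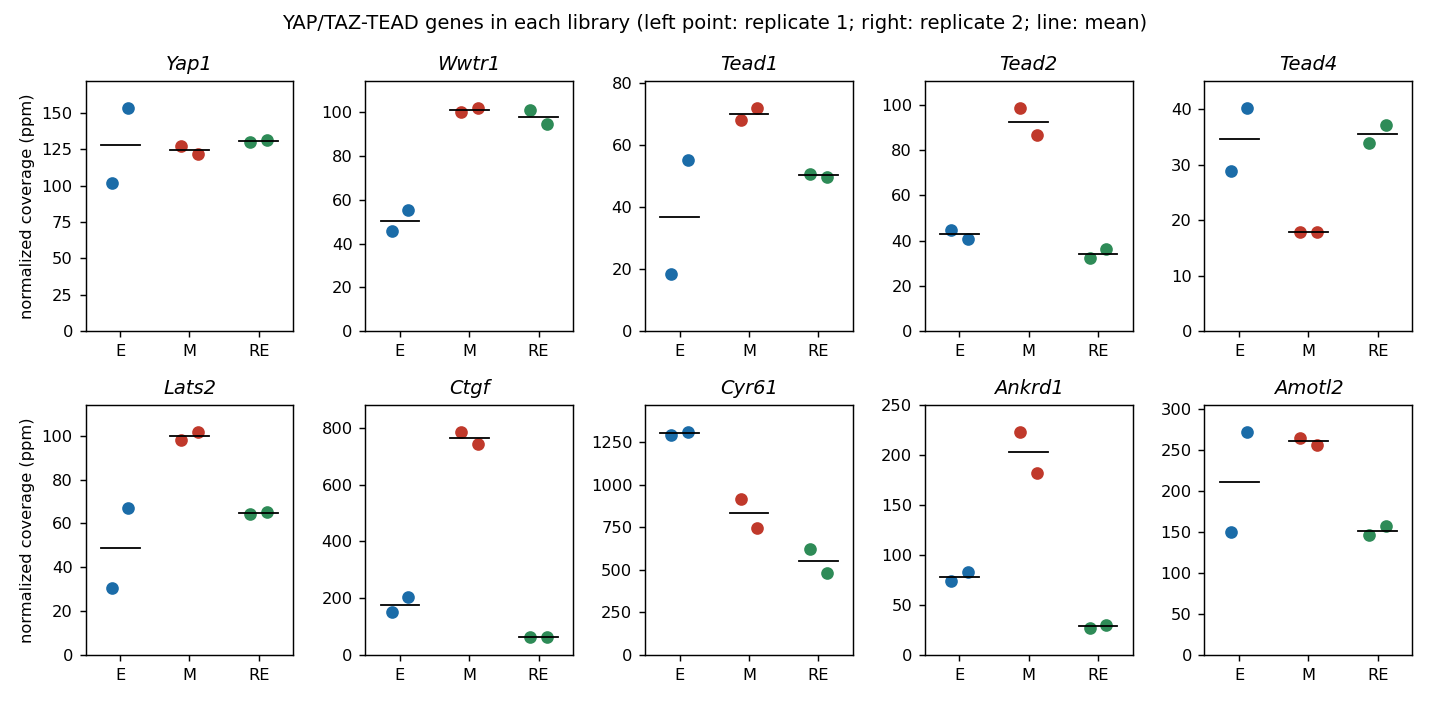
Normalized coverage (ppm, linear axes from 0) of the 10 genes in each library of E, M and RE cells, with points for single libraries and a line for the mean of 2. *Ctgf* and *Ankrd1* peak in M cells and lie below E cells in RE cells, *Wwtr1* stays near 100.1 ppm after TGFβ1 removal, and the E libraries of *Tead1* and *Lats2* lie far apart.

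A pattern of this kind, called higher in M than in E, lower in RE than in M and lower in RE than in E, was met by 19 of the 13893 genes (0.137%), among them *Ctgf* and *Ankrd1*. By distance of centred log2 values over the 6 libraries, the nearest of 10086 genes to *Ctgf* were *Wnt9a* (distance 0.171), *Ctsw* (0.271) and *Tnnt2* (0.464). *Wnt9a*, a Wnt ligand, was at 7.92 and 11.7 ppm in E cells, 47 and 44.9 ppm in M cells and 3.79 and 3.76 ppm in RE cells. *Ctsw* encodes a cathepsin protease and *Tnnt2* encodes cardiac troponin T. The nearest to *Ankrd1* were *Nt5dc2* (0.413), *Lgr6* (0.435), an R-spondin receptor, and *Edn1* (0.45), the precursor of the peptide endothelin-1. *Edn1* was at 6.82 and 10.6 ppm in E cells, 20.8 and 17.5 ppm in M cells and 3.22 and 3.35 ppm in RE cells. All 6 of these neighbours were among the 19 genes. This adds no support for the pattern, since they were picked for a similar profile over the same 6 libraries.

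*Cyr61*, also a matricellular CCN protein, was at 1294 and 1312 ppm in E cells, 915 and 747 ppm in M cells and 623 and 479 ppm in RE cells. The groups did not overlap, and each stage was lower than the one before. The decrease was called in E vs. RE, where *Cyr61* fell 2.37-fold (log2 fold change -1.25, SE 0.18, limma adjusted p = 0.0034). It was not called in either single step (log2 fold change -0.66 in E vs. M, limma adjusted p = 0.0238; -0.60 in M vs. RE, limma adjusted p = 0.0415). The E vs. RE call was kept without either E library and lost without any one of the M or RE libraries, with log2 fold changes of -1.06 to -1.45 and limma adjusted p of 0.0138 to 0.0421.

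The distance between *Ctgf* and *Cyr61* was smallest in M cells. The log2 ratio of *Ctgf* to *Cyr61*, which no library scaling can change, was -3.10 and -2.69 in E cells, -0.22 and -0.01 in M cells and -3.27 and -2.93 in RE cells. The M libraries were separate from the E and RE libraries, which overlapped. With 2 libraries against 2, an exact permutation test cannot go below p = 0.33, so none was run. Per kilobase of transcript, *Cyr61* was at 645 ± 6.07 ppm in E cells (SD, n = 2), 411 ± 58.8 ppm in M cells and 273 ± 50.8 ppm in RE cells, whereas *Ctgf* was at 71 ± 14.8, 307 ± 12.7 and 25.6 ± 0.508 ppm. Per kilobase of coding sequence the M levels were 731 ± 104 ppm for *Cyr61* and 733 ± 30.2 ppm for *Ctgf*, so their order in M cells depends on the length used.

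*Amotl2*, an angiomotin-like junction protein that holds YAP at the membrane, was at 149.6 and 273 ppm in E cells, 265 and 256 ppm in M cells and 146 and 157 ppm in RE cells. Of its E libraries, replicate 1 lay with the RE libraries and replicate 2 with the M libraries. No comparison was called (log2 fold change 0.37, -0.78 and -0.42, limma adjusted p = 0.283, 0.0534 and 0.251 in the order E vs. M, M vs. RE, E vs. RE). The signs in the comparisons with E cells depended on the E library. Without E replicate 1 the log2 fold changes were -0.07 in E vs. M and -0.85 in E vs. RE, and without E replicate 2 they were 0.80 and 0.02.

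*Lats2*, a kinase that phosphorylates YAP and TAZ, also had E libraries that lay far apart. It was at 30.6 and 67.1 ppm in E cells, 98.1 and 102 ppm in M cells and 64.5 and 65 ppm in RE cells. Both M libraries were above all others, and the RE libraries lay between the E libraries. *Lats2* was not called in E vs. M (log2 fold change 1.14, SE 0.32, limma adjusted p = 0.0252). The value was 0.58 without E replicate 1 (limma adjusted p = 0.000389) and 1.71 without E replicate 2 (limma adjusted p = 2.6e-08, called), so its size rests on which E library is used. The M vs. RE difference of -0.63 was not called (limma adjusted p = 0.177). In E vs. RE the difference was 0.51 with both E libraries (not called, limma adjusted p = 0.253), -0.05 without E replicate 1 and 1.08 without E replicate 2, when it was called.

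Among the co-activators, *Yap1* was at 102 and 154 ppm in E cells, 127 and 122 ppm in M cells and 129.8 and 132 ppm in RE cells. The E libraries enclosed the others. Its log2 fold change was -0.01 in E vs. M (95% interval -0.46 to 0.45), 0.07 in M vs. RE (-0.38 to 0.52) and 0.06 between E and RE cells (-0.39 to 0.52), and none was called. *Wwtr1* was at 45.8 and 55.3 ppm in E cells, 100.1 and 102 ppm in M cells and 101 and 94.6 ppm in RE cells. Both M and both RE libraries were above both E libraries.

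*Wwtr1* rose 2-fold in E vs. M (log2 fold change 1.005, 95% interval 0.68 to 1.33, limma adjusted p = 0.00136). It lay right at the fold threshold, and the call was made in 11 of 19 alternative settings, with values of 0.71 to 1.14. Without E replicate 1 it was 0.87, without M replicate 1 it was 1.02 (limma adjusted p = 0.0228) and without M replicate 2 it was 0.99, none of them called. In M vs. RE the difference was -0.05 (95% interval -0.37 to 0.27). In E vs. RE the log2 fold change was 0.96 (95% interval 0.64 to 1.28, limma adjusted p = 0.00335), which misses the fold threshold by little, and it was called at 1.09 without E replicate 2. Expressed as the E vs. RE difference over the E vs. M difference, 0.95 of the change of *Wwtr1* was still there in RE cells, against -0.29 for *Tead2*, -0.68 for *Ctgf* and -1.06 for *Ankrd1*, where a negative value lies beyond the E level. For *Tead2* the E vs. RE difference was not called (log2 fold change -0.324, 95% interval -0.649 to 0.002), so a level below that of E cells is not established.

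The balance of TAZ to YAP transcripts followed from this. The log2 ratio of *Wwtr1* to *Yap1* was -1.15 and -1.47 in E cells, -0.34 and -0.26 in M cells and -0.36 and -0.47 in RE cells. The 3 groups did not overlap, and the RE libraries lay close below the M libraries and well above the E libraries. Per kilobase of transcript *Yap1* was above *Wwtr1* in each group, at 30.6 ± 8.77 against 10.8 ± 1.43 ppm in E cells (SD, n = 2), 29.9 ± 0.831 against 21.5 ± 0.279 ppm in M cells and 31.3 ± 0.291 against 20.8 ± 0.971 ppm in RE cells.

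The TEAD factors did not move as 1 family. *Tead2* was at 44.6 and 40.9 ppm in E cells, 98.6 and 86.4 ppm in M cells and 32.2 and 36.1 ppm in RE cells. M libraries were highest and RE libraries lowest, with no overlap. *Tead2* rose 2.17-fold in E vs. M (log2 fold change 1.11, SE 0.14, limma adjusted p = 0.000921) and fell 2.71-fold in M vs. RE (-1.44, limma adjusted p = 0.000344). It was not called in E vs. RE (log2 fold change -0.32, limma adjusted p = 0.116). Without M replicate 1 or 2 the rise was 1.02 or 1.21 (limma adjusted p = 0.0205 and 0.0123), and without M replicate 1 the fall was -1.34 (limma adjusted p = 0.0106), none of them called. Scaled by library totals alone the rise was 0.82 and was not called.

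*Tead4* went the opposite way, at 28.9 and 40.3 ppm in E cells, 17.8 and 18 ppm in M cells and 33.8 and 37.1 ppm in RE cells. Both M libraries were below all others, and the E and RE libraries overlapped. Its log2 fold change was -0.93 in E vs. M (limma adjusted p = 0.00614) and 0.98 in M vs. RE (limma adjusted p = 0.00624), and both passed the p but not the fold threshold. Without E replicate 1 the E vs. M difference was -1.17 and was called. In E vs. RE the difference was 0.05.

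*Tead1* was at 18.4 and 55.2 ppm in E cells, 68.1 and 72.1 ppm in M cells and 50.8 and 49.8 ppm in RE cells. Both M libraries were highest, but the E libraries were 3-fold apart and enclosed the RE libraries. No comparison was called (log2 fold change 1.13, -0.48 and 0.66, limma adjusted p = 0.0708, 0.441 and 0.28 in the order E vs. M, M vs. RE, E vs. RE). Without E replicate 1 the log2 fold change was 0.34 in E vs. M and -0.13 in E vs. RE, and without E replicate 2 it was 1.92 and 1.45, both called.

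The table also has a row for 2610024B07Rik, which RefSeq lists as an older symbol of *Tead1*. That row was at 42.2 and 23.2 ppm in E cells, 23.4 and 22 ppm in M cells and 17.7 and 17.1 ppm in RE cells. It was highest in E replicate 1, the library in which *Tead1* was lowest. When both rows were summed, a step added after the data were seen, the level was 60.6 and 78.4 ppm in E cells, 91.5 and 94.2 ppm in M cells and 68.5 and 66.9 ppm in RE cells. The E libraries then differed 1.29-fold, and the M libraries were still above all others. The summed log2 fold change was 0.43 in E vs. M (95% interval 0.07 to 0.78, limma adjusted p = 0.0554), -0.46 in M vs. RE (-0.81 to -0.10, limma adjusted p = 0.0562) and -0.03 between E and RE cells (-0.38 to 0.33). None was called.

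**Figure D3:**
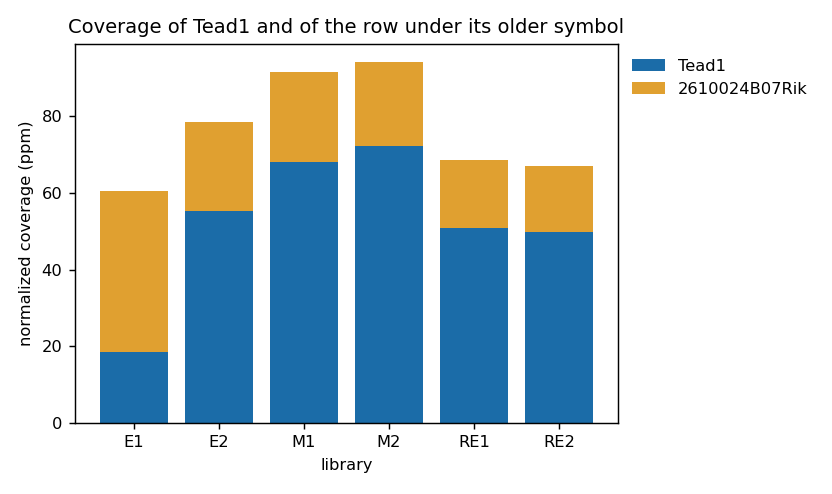
Normalized coverage (ppm, bars from 0) of *Tead1* (blue) and of the row under its older symbol 2610024B07Rik (orange), stacked for each of the 6 libraries. E replicate 1 has the smallest *Tead1* part (18.4 ppm) and the largest part of the other row (42.2 ppm), and the stacked heights of E cells lie closer together than the blue parts alone.

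The mix of TEAD transcripts was described with ratios to *Tead1*. The log2 ratio of *Tead4* to *Tead1* was 0.65 and -0.45 in E cells, -1.93 and -2 in M cells and -0.59 and -0.42 in RE cells, with both M libraries below all others. The log2 ratio of *Tead2* to *Tead1* was 1.27 and -0.43 in E cells, 0.53 and 0.26 in M cells and -0.66 and -0.46 in RE cells, and the E libraries enclosed those of M cells. Over the sum of both *Tead1* rows, the log2 ratio of *Tead2* was -0.44 and -0.94 in E cells, 0.11 and -0.12 in M cells and -1.09 and -0.89 in RE cells. On the sum, both M libraries were above all others, so the overlap of E and M cells was seen with the *Tead1* row alone. The log2 ratio of *Tead4* to the sum was -1.06 and -0.96 in E cells, -2.35 and -2.38 in M cells and -1.02 and -0.85 in RE cells, again with both M libraries lowest. *Tead3*, the family member outside the 10 genes and added after its values were seen, was at 44.6 and 52.9 ppm in E cells, 72.8 and 71.5 ppm in M cells and 75 and 73.7 ppm in RE cells, and was not called. Of the Vgll cofactors, which compete with YAP/TAZ for TEAD factors, only *Vgll4* was tested and it was not called, and *Vgll1* and *Vgll2* were at 0 to 0.116 ppm. Per kilobase of transcript the highest TEAD mean in M cells was that of *Tead2*, 27.2 ± 2.54 ppm (SD, n = 2), next to 26 ± 0.32 ppm for *Tead3*, a pair that differed by less than the spread of *Tead2*. In RE cells the highest was *Tead3*, 26.8 ± 0.338 ppm, against 10.1 ± 0.814 ppm for *Tead2*, 11.5 ± 0.762 ppm for *Tead4* and 5.05 ± 0.0688 ppm for *Tead1* (its own row alone). In E cells *Tead3* stood at 17.6 ± 2.11 ppm, *Tead2* at 12.6 ± 0.77 ppm, *Tead4* at 11.2 ± 2.6 ppm and *Tead1* (its own row alone) at 3.69 ± 2.61 ppm, and *Tead2* and *Tead4* did not differ beyond their spread. Per kilobase of coding sequence *Tead1* was at 38.5 ± 0.524 ppm in RE cells, below *Tead3* (53.3 ± 0.673 ppm). *Tead4* (27.7 ± 1.83 ppm) and *Tead2* (25.6 ± 2.07 ppm) were lower. In M cells *Tead1* was then at 53.6 ± 2.17 ppm, between *Tead2* (69.3 ± 6.46 ppm) and *Tead3* (51.7 ± 0.636 ppm). The place of *Tead1* thus depends on the length used. These coding values are also of its own row alone, and levels per length of both *Tead1* rows summed were not computed.

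After removal of TGFβ1, 3 of the 10 genes were called in M vs. RE (*Tead2*, *Ctgf* and *Ankrd1*), all lower in RE cells, where 12.7% of all genes were called in either direction, 4.79% as lower and 7.92% as higher. These 3 genes were also called higher in M than in E cells, a combination met by 3.44% of all genes. Scaled by library totals alone, *Tead4* was called as well, as higher in RE cells, and 10.1% of all genes were called higher and 3.6% lower. The median log2 fold change of the 10 genes was -0.61 against -0.02 for all genes. In E vs. RE, 3 of the 10 genes were called (*Ctgf*, *Cyr61* and *Ankrd1*), all lower in RE cells, where 9.08% of all genes were called, 3.16% as lower and 5.92% as higher. The epithelial marker sum given above was also lower in RE than in E cells, with its largest fall in *Krt18*. *Cdh1* was only 1.13-fold lower, and *Krt14* and *Krt5* were higher in RE cells. A link between these markers and the calls was not tested. The median of the 10 genes was -0.14 and that of all genes was 0. The comparisons share libraries and are not independent. Separation of the libraries alone was common: 8 of the 10 genes did not overlap in E vs. M (71.1% of all genes), 9 in M vs. RE (78.6%) and 5 between E and RE cells (67.0%).

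**Figure D4:**
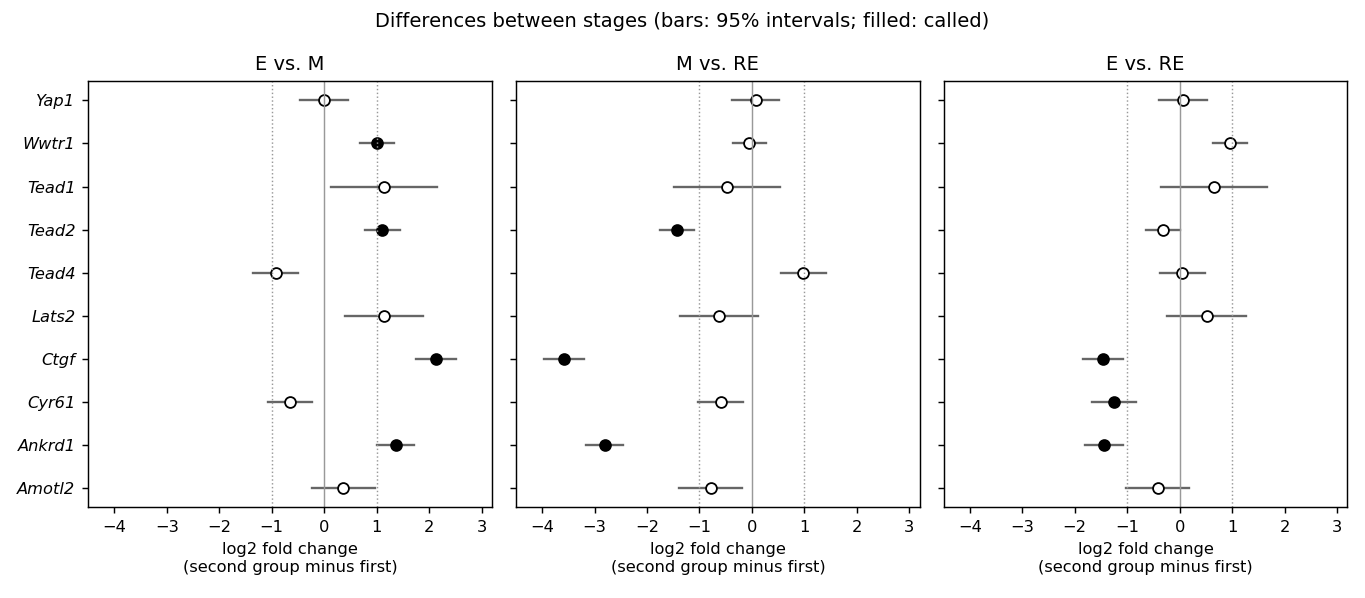
Log2 fold change with its 95% interval (bars) for the 10 genes in the 3 comparisons, second group minus first, with filled points for called genes and dotted lines at the fold threshold of 1 on the log2 scale. *Ctgf*, *Ankrd1* and *Tead2* lie right of 0 in E vs. M and left of 0 in M vs. RE, and *Wwtr1* lies near 1 in both comparisons with E cells.

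The wider set of YAP/TAZ targets was described with a list of 22 genes of a published target signature, all of them tested and including *Ctgf*, *Cyr61*, *Ankrd1*, *Amotl2* and *Lats2*. In E vs. M, 5 of the 22 were higher in M cells and none was lower, where 8.41% of all genes were called higher and 8.35% lower. The median log2 fold change was 0.53 against 0 for all genes. Outside the 10 genes, 3 of 17 rose. These were *Nt5e*, the cell surface ecto-nucleotidase CD73, *Foxf2*, a forkhead factor of mesenchymal cells, and *Tgfb2*, a TGFβ ligand.

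*Nt5e* was at 110.2 and 187 ppm in E cells, 555 and 399.6 ppm in M cells and 169.9 and 194 ppm in RE cells. It rose 3.21-fold and then fell 2.62-fold (limma adjusted p = 0.00239 and 0.00787). The rise was 2.55-fold without E replicate 1 and 4.33-fold without E replicate 2. *Tgfb2* was at 14.1 and 15.6 ppm in E cells, 42.8 and 41.4 ppm in M cells and 43.5 and 37.9 ppm in RE cells. It rose 2.83-fold in E vs. M (limma adjusted p = 0.000257) and was still 2.74-fold above E cells in RE cells (limma adjusted p = 0.000895). *Foxf2* was low, at 1.24 and 1.33 ppm in E cells, 4.12 and 4.55 ppm in M cells and 1.61 and 2.12 ppm in RE cells.

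In M vs. RE, 4 of the 22 signature genes fell (*Ctgf*, *Ankrd1*, *Nt5e* and *Foxf2*) and 2 rose, where 4.79% of all genes were lower and 7.92% higher, with a median of -0.34 against -0.02 for all genes. The 2 that rose were *Ccdc80*, a secreted matrix-associated protein, and *F3*, the tissue factor that starts coagulation. *Foxf2* in this comparison and *F3* fall outside the naming rule and were chosen after their values were seen. *Ccdc80* was at 4.29 and 2.71 ppm in E cells, 2 and 1.61 ppm in M cells and 19.4 and 17.2 ppm in RE cells. It was 10.1-fold higher in RE than in M cells and 5.23-fold higher in RE than in E cells (limma adjusted p = 0.000135 and 0.00126). Between E and RE cells, 2 signature genes were higher (*Ccdc80* and *Tgfb2*) and 3 lower (*Ctgf*, *Cyr61* and *Ankrd1*), where 5.92% and 3.16% of all genes were. The median was 0.21 against 0 for all genes, and none of the 17 genes outside the 10 was lower.

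These counts depended on single libraries. So did the calls over all genes, which were fewer without any one M or RE library and more without E replicate 2. In E vs. M, 2 signature genes were called without M replicate 1, 3 without M replicate 2 and 10 without E replicate 2, and in M vs. RE 3 were called without any one of the M or RE libraries. Between E and RE cells 9 were called without E replicate 2 and 0 without either RE library.

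**Figure D5:**
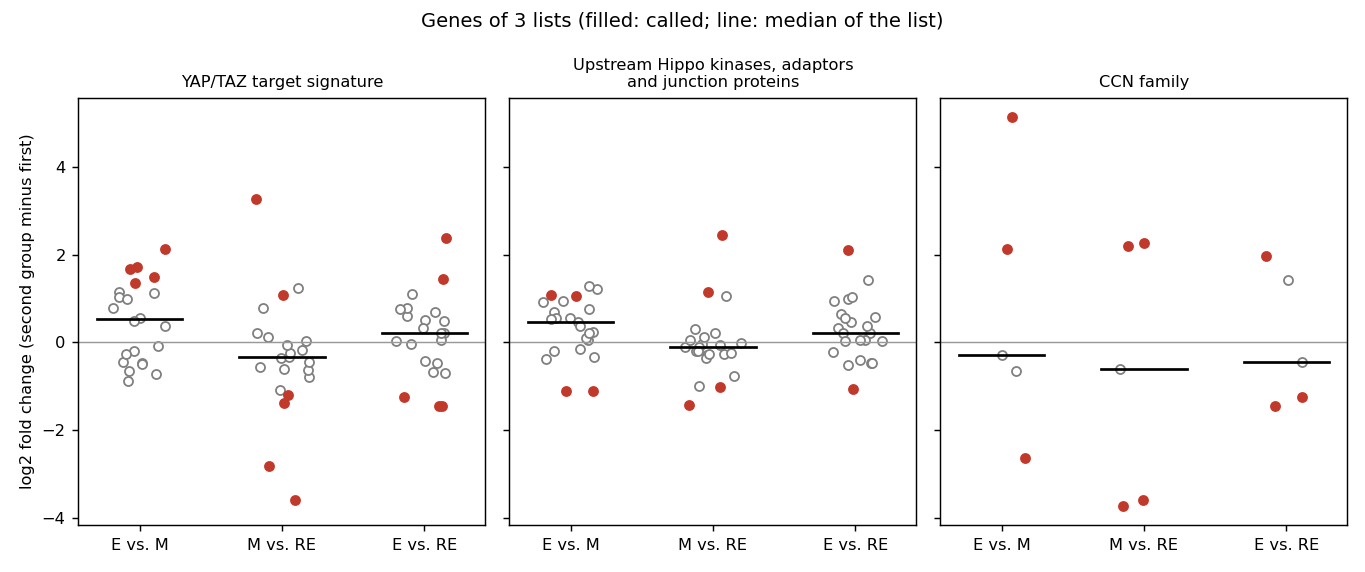
Log2 fold change (second group minus first) of each tested gene in the YAP/TAZ target signature (22 genes), the upstream Hippo list (23 genes) and the CCN family (5 genes) in the 3 comparisons, with filled points for called genes and a black line for the median of the list. The signature has 5 called genes above 0 and none below in E vs. M, and called genes on both sides in the other comparisons. The point of *Nov*, with no coverage in M cells, depends on the pseudocount.

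The upstream list held 24 Hippo kinases, adaptors and junction proteins, of which 23 were tested. In E vs. M, 2 were higher (*Mob1a* and *Wwc2*) and 2 lower (*Nf2* and *Wwc1*), and 19 were not called. These 4 of 23 are a share near the 16.8% of all genes called. Its median log2 fold change was 0.47 against 0 for all genes. *Nf2*, the tumour suppressor Merlin that recruits LATS kinases to the membrane, was at 351 and 444 ppm in E cells, 189.5 and 179.7 ppm in M cells and 394 and 421 ppm in RE cells. It fell 2.15-fold and then rose 2.21-fold (limma adjusted p = 0.00139 and 0.00147), and its E and RE libraries overlapped. Without E replicate 2 the fall was 1.9-fold and was not called. *Mob1a*, an activator of LATS, rose 2.13-fold (limma adjusted p = 0.000609). In RE cells it was still 1.99-fold above E cells (log2 fold change 0.99, limma adjusted p = 0.00201), which misses the fold threshold by little and was not called.

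The paralogous scaffolds *Wwc1* (Kibra) and *Wwc2* moved apart. *Wwc1* was at 237 and 341 ppm in E cells, 127 and 136 ppm in M cells and 133 and 139 ppm in RE cells, and it was still 2.12-fold below E cells in RE cells (limma adjusted p = 0.00609). Without E replicate 2 *Wwc1* was 1.8-fold lower in M cells and 1.74-fold lower in RE cells, neither of them called. *Wwc2* was at 183 and 285 ppm in E cells, 466 and 492 ppm in M cells and 231 and 240 ppm in RE cells. It rose 2.05-fold and fell 2.03-fold (limma adjusted p = 0.00585 and 0.00895), and its E libraries enclosed the RE libraries. Without E replicate 1 the rise was 1.68-fold and was not called.

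In M vs. RE the 2 genes that rose were *Nf2* and *Fat4* and the 2 that fell were *Wwc2* and *Rassf1*, again 4 of 23 where 12.7% of all genes were called, with a median of -0.10. *Rassf1*, a scaffold that binds the MST kinases, was at 30.4 and 47 ppm in E cells, 73.1 and 73.5 ppm in M cells and 28.5 and 25.7 ppm in RE cells. *Fat4*, an atypical cadherin, was at 4.09 and 7.77 ppm in E cells, 3.77 and 5.28 ppm in M cells and 27.5 and 22.1 ppm in RE cells. It was 5.48-fold higher in RE than in M cells and 4.18-fold higher in RE than in E cells (limma adjusted p = 0.00145 and 0.00406). The latter was 3.19-fold without E replicate 1 and 6.06-fold without E replicate 2, called in both. Between E and RE cells, *Fat4* was the only list gene called higher and *Wwc1* the only one called lower, where 9.08% of all genes were called. None of the 23 upstream genes was called in M vs. RE without M replicate 1, M replicate 2, RE replicate 1 or RE replicate 2, or in E vs. M without either M library. For E vs. RE none was called without any one of the M or RE libraries, and 6 were without E replicate 2. With only the 2 groups fitted, 2 were called in E vs. M and 0 between E and RE cells. Over all genes calls were likewise fewer in each of these settings, except without E replicate 2, where they were more.

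Of the 5 CCN genes tested, 2 were higher (*Ctgf* and *Wisp1*) and 1 lower (*Nov*) in E vs. M. Of all genes, 8.41% were called higher and 8.35% lower. After TGFβ1 removal 2 CCN genes were higher (*Wisp2* and *Nov*) and 2 lower (*Ctgf* and *Wisp1*), where 7.92% and 4.79% of all genes were. Between E and RE cells 1 was higher (*Wisp2*) and 2 lower (*Ctgf* and *Cyr61*), where 5.92% and 3.16% of all genes were. *Wisp1* was at 2.21 and 6.02 ppm in E cells, 134 and 129.5 ppm in M cells and 10.1 and 9.73 ppm in RE cells. It rose 32-fold in E vs. M and fell 13.3-fold in M vs. RE (limma adjusted p = 0.000107 and 0.000532). The size of the rise depended on the E library, at 21.9-fold without E replicate 1 and 59.5-fold without E replicate 2, and it was called in both. *Wisp2* was at 19 and 16 ppm in E cells, 14.2 and 14.2 ppm in M cells and 69.2 and 68.8 ppm in RE cells, 4.86-fold higher in RE than in M cells (limma adjusted p = 5.4e-05). *Nov* was low, at 0.693 and 0.394 ppm in E cells and 0.4 and 0.321 ppm in RE cells, with no coverage in either M library, so that no fold is given. It passed the filter on low values only through the E and RE libraries, so its calls against M cells rest on that filter and the pseudocount. With a pseudocount of 1 ppm, or 500 bases required in every library, 2 rather than 3 CCN genes were called in E vs. M. The CCN calls between E and RE cells were lost without either RE library, and some after TGFβ1 removal were lost without M replicate 1. Calls over all genes were also fewer in these fits.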

How the data were processed

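RNA of E, M and RE cells was sequenced with 2 libraries per group. The sample labels speak of 3 biological replicates for RNA and 2 for sequencing, so p-values measure the spread between these libraries. The authors mapped unique reads to NCBI-m37 with Bowtie and TopHat2 and named edgeR for differential expression. The step that summed values per gene is not given in the sources used here. The deposited table holds whole numbers that behave as coverage (signal), that is, bases per gene, since 44.8% to 48.4% of values from 1 to 400 are multiples of 50. A count test was therefore replaced by limma. All 6 columns were used.

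From the deposited coverage, TMM factors without weights (trimming 30% of log ratios and 5% of levels) were computed on the 13893 genes that reached 500 bases in 2 or more libraries. limma 3.58.1 in R 4.3.3 was fitted to log2(ppm + 0.1) with all libraries, group only, with trended moderation, so fold changes on this scale understate those of low genes. Folds given as ratios are of mean ppm. The floor was 150 bases (3 reads' worth), which covers counting error only. Lengths came from GENCODE M21 and promoters from RefSeq, both newer than the authors' build, and were matched by symbol. Older symbols were matched for *Mob1a* (Mobkl1b), *Epcam* and others, and *Vgll3* and *Wisp3* had no row. The fit was checked on simulated data.

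The 10 genes and the gene lists were chosen with earlier results of these data known. Named genes are the 10, at most 4 called genes per list and comparison by size of change, and the 3 nearest in pattern to the 2 genes of largest change. The replicate numbers are those of the sample titles. Alternatives were other thresholds, scalings, pseudocounts (0.025 and 1 ppm), filters, samples in the fit, the replicate block, array weights and leaving out each library. Summing the 2 *Tead1* rows and removing trends on GC content and length were added after the data were seen.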

Additional observations from a re-analysis of the deposited data

How the results depend on the processing

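Each group had 2 libraries. Of the 10 genes, 4 were called in E vs. M, 3 after TGFβ1 removal (M vs. RE) and 3 between E and RE cells, and these counts stayed within 1.5 times of this in all alternatives that kept every library. Leaving out 1 library gave 1 to 6, 2 to 3 and 0 to 6 genes for these comparisons. The lowest E vs. M counts came without M replicate 1 (1) and M replicate 2 (2), and the lowest E vs. RE count came without RE replicate 1 or 2 (0 each), where the spread rests more on the E libraries. Over all genes, calls ranged from 858 to 3353 (2329 as reported) for E vs. M, from 627 to 2410 (1766) for M vs. RE, and for E vs. RE from 8 (without RE replicate 1) to 2333 (1262). With only the 2 groups fitted, E vs. RE had 462 calls. Both changes of *Ctgf* during TGFβ1 treatment and after its removal, and the fall of *Ankrd1*, were called in all 19 settings.

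The replicate numbers shared by the groups were checked for pairing. Same-numbered deviations correlated at 0.27 (E and M), 0.06 (E and RE) and 0.12 (M and RE), and the labels do not pair them. A block for the replicate number left 4, 3 and 3 of the 10 genes called, and 2389, 1793 and 1212 of all genes.

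Several small differences changed sign, all of them not called as reported. Scaling by library totals, which moved the median of all genes by -0.29 in E vs. M, gave 0.165 for *Wwtr1* in M vs. RE, and -0.021 for *Yap1* and -0.029 for *Tead4* between E and RE cells. Removing trends on GC content and length gave -0.264 for *Yap1* between E and RE cells, with and without the block. Summing the *Tead1* rows gave -0.026 for *Tead1* between these cells. Without 1 library, the E vs. M value ranged from -0.301 to 0.291 for *Yap1* (0.023 without M replicate 2) and from -0.066 to 0.799 for *Amotl2*. The M vs. RE value of *Wwtr1* ranged from -0.095 to 0. Between E and RE cells, *Yap1* ranged from -0.233 to 0.359, *Amotl2* from -0.848 to 0.016, *Tead4* from -0.183 to 0.292, *Tead1* from -0.133 to 1.446 and *Lats2* from -0.051 to 1.08. With both *Tead1* rows summed, the mean log2 ratio of *Tead2* to *Tead1* was -0.01 in M and -0.99 in RE cells, and that of *Tead4* was -1.01 in E, -2.37 in M and -0.93 in RE cells. Per coding length, the log2 ratio of *Cyr61* to *Ctgf* in M cells was 0. The cause of these changes was not tested.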
